A study of Mus musculus with 24 samples.

Results

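The 10 genes described here are Notch pathway genes of the mouse, chosen by name among 22028 annotated protein-coding genes: the receptors Notch1, Notch2 and Notch3, the ligands Dll1 and Dll3, the Fringe enzymes Rfng, Mfng and Lfng, and the target genes Hes1 and Hes5. All peaks on the gene's own strand over the gene body were taken, and 16 of the 29007 deposited peaks qualified. RNA bound by STAU2, a double-stranded RNA-binding protein, was recovered from whole mouse cortex by RNA immunoprecipitation (RIP) and compared by the authors with input RNA. There were 8 groups of 3 libraries each: STAU2 RIP and input, at E11.5 and E13.5 (E, embryonic day) and again at E15.5 and E17.5. No genotype, strain or treatment is given, and each replicate started from the cortices of a pooled litter. The RIP with an anti-T7 control antibody was read by qPCR and was not analysed here.

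The 3 RIP and 3 input libraries of a day stand behind 1 peak list per strand, so no value per replicate, no spread and no read depth can be given. The authors deposited a score, a signal, a p-value and a q-value per peak. The lists do not give the direction of a peak (RIP above input or below it), or the libraries and scaling behind the signal. Peaks were ranked by the deposited p within a day, from rank 1, the strongest, over 6530, 5871, 10265 and 6341 peaks on the 4 days in order of age. Ranks therefore hold within a day, and signals of different days were set side by side without a test. A peak also depends on how much of the transcript the tissue held: in whole cortex, fewer cells of a type and less RNA per cell cannot be told apart.

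Notch signalling passes between touching cells. A Delta or Jagged ligand on one cell binds a Notch receptor on its neighbour, the receptor is cleaved, and its intracellular domain enters the nucleus, where it switches on genes such as Hes1 and Hes5 together with Rbpj. In the embryonic cortex this keeps radial glia, the dividing progenitors, from becoming neurons, while differentiating daughter cells carry the ligands. Fringe enzymes add a sugar to O-fucose on the extracellular repeats of the receptors and so alter which ligands they answer to.

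The receptor peaks lay in the last exon, and sequences of the members' peaks are shown to let these stretches be read. They are written 5' to 3' on the transcript with DNA letters, from the GENCODE vM21 transcripts (mm10). Capitals mark bases that RNAfold paired when the whole peak was folded alone. Of the coding peaks shown, the bases are given in full, up to the stop codon. Of a 3' UTR peak, 30 bases at its centre are shown. The coding peaks of Notch1 at E11.5 and Notch3 at E15.5, the 3' UTR peaks of Notch2 and Notch3, and the Dll3 peak were added to the strongest peaks after their values had been seen.
Notch1, E11.5, coding, chr2:26460052-26460103, minus strand: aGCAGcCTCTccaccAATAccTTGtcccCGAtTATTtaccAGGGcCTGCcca
Notch3, E13.5, coding part to the stop codon, chr17:32121820-32121950, minus strand: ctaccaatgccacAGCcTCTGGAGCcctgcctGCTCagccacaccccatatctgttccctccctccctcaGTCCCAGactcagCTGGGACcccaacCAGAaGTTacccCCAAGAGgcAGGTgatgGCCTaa
Notch3, E15.5, coding, chr17:32122040-32122090, minus strand: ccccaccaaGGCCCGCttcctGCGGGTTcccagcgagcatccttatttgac
Notch1, E15.5, 3' UTR, chr2:26458156-26458185, minus strand: GGGGGCTTtcGGGGGCagttGCCCaCCtcc
Notch2, E17.5, 3' UTR, chr3:98149840-98149869, plus strand: AGGATAttTTtttttAAttTGTTCTTtttt
Notch3, E15.5, 3' UTR, chr17:32121489-32121518, minus strand: TGAGttattatttttttctttTTTACaTTT
Rfng, E11.5, 3' UTR, chr11:120781383-120781412, minus strand: CACaGGtccttCCCTGGataaAGtCTacca
Mfng, E15.5, 3' UTR, chr15:78756287-78756316, minus strand: CctGCatGGAatctagccTCTgGCtttGGC
Dll3, E13.5, 3' UTR, chr7:28293884-28293913, minus strand: ccttctctatcttGTcCCtTCTCTAtcatc

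Notch1 and Rfng had a peak in an exon at E11.5, Notch3 and Dll3 at E13.5, Notch1, Notch3, Dll3, Rfng, Mfng and Lfng at E15.5, and Notch2 and Rfng at E17.5. A gene was counted when at least 1 base of a peak fell in one of its exons. That made 2 of 10 at E11.5, where 9.06% of all protein-coding genes had such a peak, 2 at E13.5 (11.7% of all), 6 at E15.5 (19.8%) and 2 at E17.5 (13.5%). Over the 4 days 7 of 10 had one, against 30% of all protein-coding genes. The 10 genes were chosen with earlier results of these data known, so these shares are set side by side without a test. All protein-coding genes include any that the cortex did not express, since the lists give no expression levels. Counting peaks anywhere in the gene body gave the same members, beside 10.4%, 12.5%, 20.8% and 14.3% of all genes on the 4 days and 31.9% over them. When 50% or more of a peak had to be exonic, the counts were 2, 2, 5 and 2, and 6 over the 4 days, Lfng being left out, beside 7.84%, 10.4%, 17.8% and 12.2% of all genes, and 27.8%. Dll1, Hes1 and Hes5 had no peak on any day, in exons or introns. Taking the stronger 50% of the peaks of each day left Rfng at E11.5, Notch3 at E13.5, Notch1, Notch3, Dll3 and Mfng at E15.5, and Notch2 at E17.5, beside 5.18%, 6.92%, 12.6% and 8.38% of all genes. With 10 genes each gene moves the share by 10 percentage points, and no replicate spread stands behind the counts. Rfng was listed on 3 days, Notch1, Notch3 and Dll3 on 2, Notch2, Mfng and Lfng on 1, and none on all 4. Of all protein-coding genes 4.82% had an exonic peak on 3 days, 9.12% on 2, 14.3% on 1 and 1.77% on all 4.

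**Figure D1:**
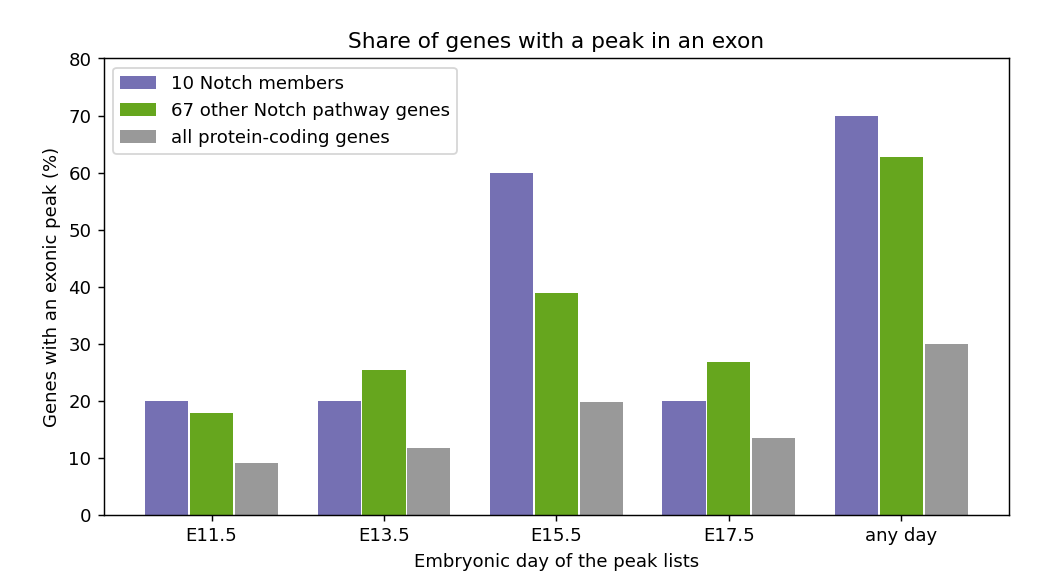
Percent of genes with at least 1 base of a peak in an exon (vertical axis) by embryonic day (horizontal axis), for the 10 Notch members, 67 other Notch pathway genes and all protein-coding genes. The members reached 6 of 10 at E15.5 and 2 of 10 on the other days, with all genes at 9.06% to 19.8%.

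Longer transcripts carried peaks more often, so the receptors, with the longest exons, are best read beside genes of their own length. Among protein-coding genes with 8000 or more exonic bases, as Notch1, Notch2 and Notch3 have, 46.6% had an exonic peak on some day. The share was 28.1% among genes of 2000 to 4000 exonic bases, as Dll3, Rfng, Mfng, Lfng and Hes1 have, and 13.4% below 2000 bases, where Hes5 falls. Dll1 lies between 4000 and 8000 bases, where 39.2% had a peak. The median exonic length of the 10 members was 2845 bases, against 3488 for all protein-coding genes.

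All 8 receptor peaks had their midpoint in the last exon, which encodes the C-terminal part of the intracellular domain and holds the 3' UTR. That exon makes up 32.4% of the spliced Notch1 transcript, 41.0% of Notch2 and 25.5% of Notch3. Over all 10 genes 13 of 16 peaks lay in the last exon, and 56.3% did of the 18058 exonic peaks that could be placed on a representative isoform of a protein-coding gene. The midpoint was in the 3' UTR for 9 member peaks, in coding sequence for 5 and in an intron for 2. Among all 19355 exonic peaks of protein-coding genes 52.4% were in a 3' UTR, 24.1% in coding sequence and 17.0% in an intron. A stop codon was touched by 4 member peaks, in Notch1, Notch3 and Dll3, while 7.45% of the 18058 placed peaks touched one. No member peak had its midpoint in a 5' UTR. The 16 peaks came from 7 genes and are not independent. The Rfng peaks of 3 days overlapped, as did the Dll3 peaks of 2 days, so these sites count more than once. The peaks of all genes were pooled over the days in the same way.

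**Figure D2:**
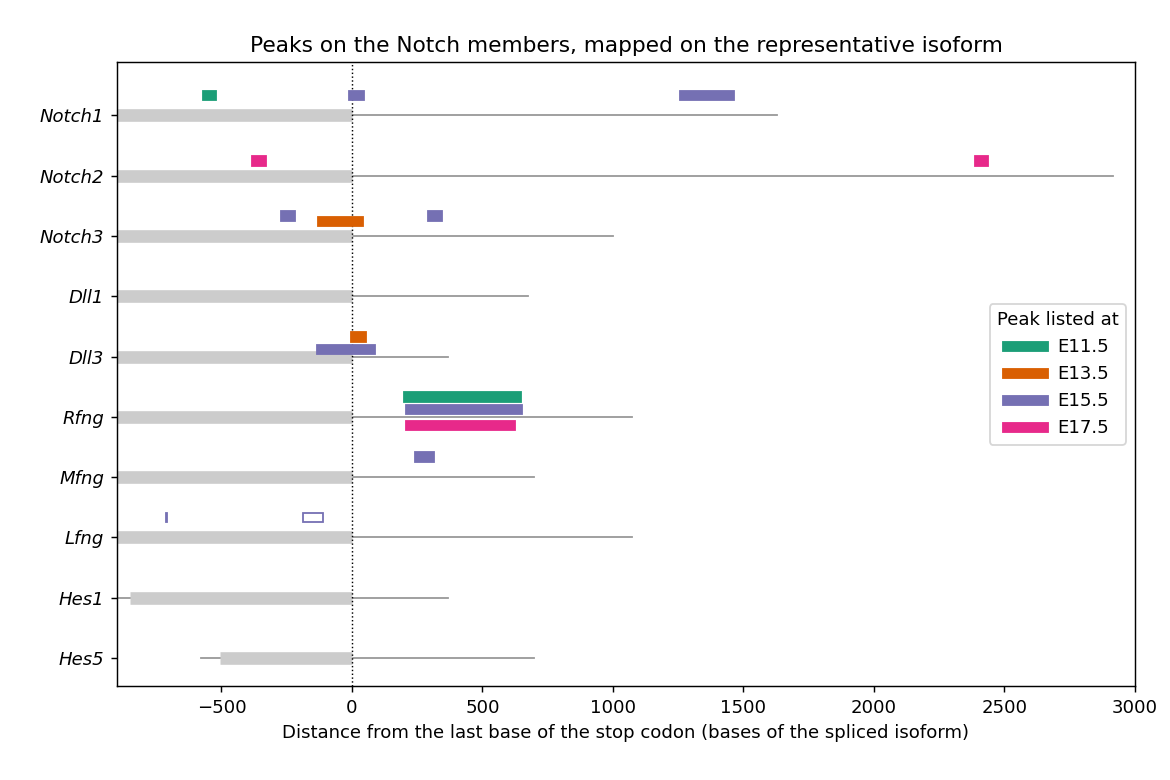
Peaks of the 10 members on the representative spliced isoform. The horizontal axis gives bases from the last base of the stop codon, thick grey bars are coding sequence (cut off to the left), thin lines untranslated sequence, and coloured bars the peaks by day. The open Lfng bars are the few exonic bases of peaks that were mostly intronic. The Rfng peaks of 3 days stack over the same stretch, and those of Notch1, Notch2 and Notch3 lie apart.

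Notch1, a receptor of cortical progenitors (mm10 chr2:26457903-26516663, minus strand, 34 exons), had 1 peak at E11.5 and 2 at E15.5. The E11.5 peak (52 bases) covered codons 2342 to 2359 of 2531, with a deposited signal of 15.8 and p of 0.00208, rank 6283 of 6530. It was among the weakest peaks of its day. At E15.5 a peak of 60 bases touched the stop codon (chr2:26459485-26459544, signal 33.4, rank 7804 of 10265). The other, of 204 bases, lay 1259 to 1462 bases past the stop codon, 166 bases from the transcript's end (chr2:26458069-26458272, signal 34.7, rank 4857). No Notch1 peak of E11.5 overlapped one of E15.5, and the nearest pair stood 508 bases apart. The long peak also lies over 0610009E02Rik and Gm13568, noncoding genes on the other strand, and was given to Notch1 by the strand of its list.

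Notch2 (chr3:98013527-98150361, plus strand, 34 exons), a receptor with a 3' UTR of 2917 bases, had 2 peaks, both at E17.5. The stronger (54 bases, signal 29.8, p of 0.00105, rank 2456 of 6341) lay in coding sequence. The other, of 50 bases, lay in the 3' UTR 2386 to 2435 bases past the stop codon (chr3:98149830-98149879, signal 11.1, rank 4005). Both lay in the last exon, as did the peaks of Notch1, but on a day when neither Notch1 nor Notch3 had one.

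Notch3 (chr17:32120820-32166852, minus strand, 33 exons), a receptor known from radial glia and from the mural cells of vessels, had 1 peak at E13.5 and 2 at E15.5. The E13.5 peak ranked 215 of 5871 with a p of 4.32e-05 in the authors' deposited list and a signal of 10.8 (chr17:32121777-32121950, 174 bases). It ran from codon 2276 through the stop codon and 43 bases beyond. At E15.5 a 3' UTR peak of 53 bases (chr17:32121477-32121529, signal 15.2, rank 2115 of 10265) and a coding peak of 51 bases (signal 4.93, rank 9730) lay on either side of that stretch, with gaps of 248 and 90 bases. Thus the 3 peaks fell within neighbouring stretches and none overlapped. All 3 also lie over Gm17276, a gene annotated antisense to Notch3, and were given to Notch3 by the strand of their list.

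Of the 15 markers fixed for vessels and mural cells, Notch3 among them, 4 had an exonic peak at E13.5 (Vtn, Col4a1, Col4a2 and Notch3) and 3 at E15.5 (Cldn5, Col4a1 and Notch3), 1 at E11.5 and none at E17.5. The endothelial markers Pecam1, Cdh5, Kdr, Flt1 and Tek and the pericyte markers Pdgfrb, Rgs5 and Cspg4 had none. Of 6 meningeal markers, 4 had a peak at E13.5 (Col1a1, Col1a2, Col3a1 and Dcn) and none on the other days. Notch3 is itself in the vessel counts. Both lists stood above all protein-coding genes at E13.5, where 11.7% had a peak, and this difference was not tested. The vessel count at E15.5 is near the 19.8% of all protein-coding genes with a peak that day. The part of vessel RNA in the Notch3 peaks was not tested.

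The ligands differed. Dll1 (chr17:15367354-15376872, minus strand), which activates Notch on neighbouring cells, had no peak, and the nearest peak on its strand lay 98931 bases upstream at Psmb1. Dll3 (chr7:28293553-28302238, minus strand, 9 exons), a divergent Delta gene whose product acts within the cell that makes it, had a peak at E13.5 and one at E15.5. The E13.5 peak of 63 bases began just before the stop codon and ended 54 bases past it (chr7:28293867-28293929, signal 61.1, p of 0.000934, rank 3188 of 5871). The E15.5 peak was 553 bases wide (chr7:28293835-28294387, signal 19.7, p of 0.000378, rank 1562 of 10265) and contained the whole E13.5 peak. Of its bases 335 were exonic over all isoforms and 218 intronic, so it ran across the last intron of the gene. In the representative isoform the last Dll3 exon holds 6 coding bases, and the earlier peak lies almost wholly in it.

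Rfng, Radical fringe (chr11:120780746-120784207, minus strand, 8 exons), was listed on more days than any other of the 10 genes. At E11.5 its 3' UTR peak ranked 13 of 6530, with a p of 8.19e-07 in the authors' deposited list, a q of 0.00612 and a signal of 56.8 (chr11:120781174-120781621, minus strand, 448 bases). At E15.5 the peak spanned chr11:120781173-120781613, 441 bases, with a signal of 90.6 and rank 7024 of 10265 (p of 0.00225). At E17.5 it spanned chr11:120781199-120781616, 418 bases, with a signal of 111 and rank 4622 of 6341 (p of 0.00239). The borders of the 3 peaks differed by 1 to 26 bases, and the pairs overlapped by 415 to 440 bases. The E11.5 peak started 201 bases past the stop codon and ended 648 bases past it, inside a 3' UTR of 1074 bases. No peak was listed over Rfng at E13.5.

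The rank and the signal of Rfng went opposite ways. By p the peak stood in the top 0.199% of its list at E11.5, and at 68.4% and 72.9% at E15.5 and E17.5. Its signal was higher than or equal to that of 71.4%, 86.0% and 88.4% of the peaks on those days. The peaks were wide: 12.04%, 11.3% and 11.4% of all peaks on those days had 400 or more bases, and the median width was 82, 81 and 83 bases. Among the 4 members with exonic peaks on 2 or more days, Rfng and Dll3 had peaks of different days that overlapped and Notch1 and Notch3 did not, beside 50.5% of all such genes.

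Mfng, Manic fringe (chr15:78755882-78773475, minus strand), had 1 peak, in the 3' UTR at E15.5 (chr15:78756266-78756337, 72 bases, signal 20.6, p of 0.000920, rank 3448 of 10265). It lay 241 to 312 bases past the stop codon, in a 3' UTR of 696 bases. The Rfng peaks together covered a wide stretch, 201 to 649 bases past the Rfng stop codon. A likeness in position was not tested. Lfng, Lunatic fringe (chr5:140607320-140615545, plus strand), had 2 wide peaks at E15.5, of a different kind. One of 3128 bases (chr5:140607841-140610968, signal 13.6, rank 7312) held 4 exonic bases, and one of 945 bases (chr5:140613287-140614231, signal 17.5, rank 5980) held 87. Their exonic share was 0.128% and 9.21%. Peaks with under 50% of their bases in exons made up 15.9% of all exonic peaks at E15.5. All 3 Fringe genes had a peak touching an exon at E15.5, the day with the longest list, when 19.8% of all protein-coding genes had one. The peaks lay in the 3' UTR for Rfng and Mfng and mostly in introns for Lfng. When 50% or more of a peak had to be exonic, Lfng dropped out, beside 17.8% of all genes.

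**Figure D3:**
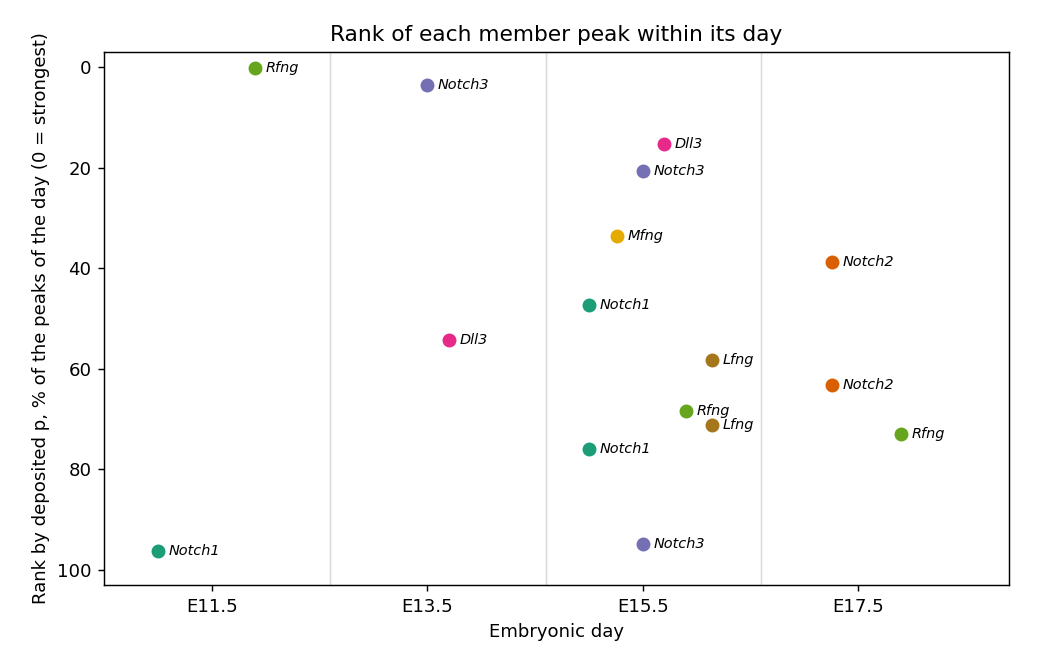
Each point is 1 of the 16 member peaks, by embryonic day (horizontal axis, spread within a day for legibility) and by its rank on the deposited p as a percent of the peaks of that day (vertical axis, 0 the strongest). Rfng at E11.5 and Notch3 at E13.5 stand at the top, at 0.199% and 3.66%, and Notch1 at E11.5 near the bottom, at 96.2%.

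Hes1 (chr16:30064384-30067796, plus strand) and Hes5 (chr4:154960923-154962371, plus strand) had no peak on any day. Both are helix-loop-helix repressors that Notch switches on in radial glia. The nearest peak on the strand of Hes1 lay 411022 bases upstream, at Opa1, and that of Hes5 18141 bases downstream, at Pank4. Their spliced isoforms are 1468 and 1273 bases long. The lists give no level for a gene without a peak, so whether the transcripts were too low to be tested or were tested and missed the threshold is not known. No peak lay on the antisense strand of any of the 10 genes.

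The tissue could be checked only through genes that had peaks. Of 10 markers of cortical progenitors, which include Hes1 and Hes5, Pax6, Fabp7, Emx2 and Lhx2 had a peak on some day, with 2, 3, 4 and 2 of them on the 4 days. Of 9 markers of intermediate progenitors, the daughter cells that express Delta genes, 7 had one at E15.5: Eomes, Neurog2, Neurog1, Insm1, Gadd45g and the members Dll3 and Mfng. There were 2 at E11.5, 4 at E13.5 and 1 at E17.5. Of all protein-coding genes 9.06%, 11.7%, 19.8% and 13.5% had a peak on the 4 days. Dll3 and Mfng count in that list, and the part of such cells in their peaks was not tested. Of 8 cortical neuron markers 5 had a peak on some day, of 6 interneuron markers 3 and of 5 microglial markers 1, Csf1r. These counts over the 4 days stand beside 30% of all protein-coding genes, and the microglial share was below it.

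Base composition divided the peaks of the receptors. The 3' UTR peaks of Notch2 and Notch3 were AT-rich, with 24% and 24.5% GC, a value reached or undercut by 0.877% of the peaks of E17.5 and 1.27% of those of E15.5 among peaks within 1 exon. The runs of T in their sequences above show this. The other peaks of Notch3 held 57.5% and 62.7% GC. The longer 3' UTR peak of Notch1 at E15.5 held 57.4% GC and had the lowest folding energy of the members per base. Its minimum free energy came to -79.5 kcal/mol over 204 bases, or -39.0 per 100 bases. Among the folded peaks of E15.5, 2.76% had a value as low, and the median was -20.7. Its runs of G and C in capitals belong to the predicted stems. The other Notch1 peak of E15.5, at the stop codon, held 51.7% GC and had -19.8 per 100 bases, near that median. Peaks of 400 or more bases had lower medians (-29.6 at E15.5). The Notch1 value was set beside peaks of all widths, and an effect of width was not tested.

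The Rfng peaks held 60.0%, 59.9% and 60.3% GC on the 3 days, and their minimum free energy was -25.5, -25.9 and -25.9 kcal/mol per 100 bases. The median of peaks of 400 or more bases was -25.3, -29.6 and -29.0 on those days, and 41 to 82 such peaks could be folded. The longest unbroken predicted stem of Rfng had 8 pairs, the same stem on all 3 days, and 88.0% to 92.7% of those wide peaks had one at least as long. Its arms read ctgtggtt and agccacag. Thus the Rfng peaks were GC-rich without a long helix in this prediction. The Mfng peak had -30.7 per 100 bases at 54.2% GC. The folds describe the peak sequence alone, outside its transcript and without bound protein.

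**Figure D4:**
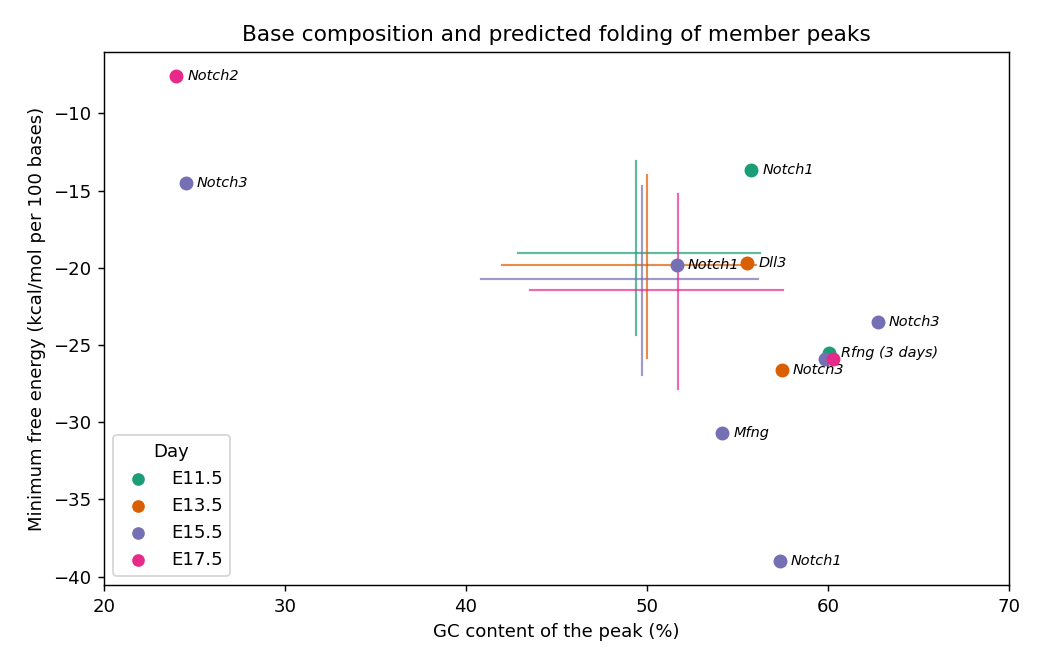
Minimum free energy per 100 bases (vertical axis) against GC content (horizontal axis) for member peaks within 1 exon, coloured by day, leaving out the Notch2 coding peak. Each cross gives the median and quartiles over all such peaks of a day. The 204-base Notch1 peak of E15.5 lies lowest at -39.0, and the 3' UTR peaks of Notch2 and Notch3 lie far left at 24% and 24.5% GC.

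The other 67 genes of the pathway had exonic peaks in 12, 17, 26 and 18 cases on the 4 days, or 17.9%, 25.4%, 38.8% and 26.9%. Over the 4 days 42 had one (62.7%), beside 30% of all protein-coding genes. This list too was chosen with earlier results of these data known, and the shares were not tested. The median exonic length of the 67 genes was 5270 bases, against 3488 for all. Among the genes with a peak, the median rank percentile of the strongest peak was 34.0, 50.04, 33.2 and 33.9 on the 4 days, and over all protein-coding genes 42.0, 42.4, 37.1 and 38.5.

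All 12 corepressors, which silence Notch targets together with Rbpj in the absence of signal, had at least 1 base of a peak in an exon on some day. Of all protein-coding genes 30% had one. The peaks of Tle1 and Tle2 were mostly intronic, and 10 of 12 were left when 50% or more of a peak had to be exonic, beside 27.8% of all genes. Spen had the strongest of the list at E15.5, in coding sequence (chr4:141472671-141472733, rank 87), and Ncor1 was the third that day (rank 339). Ctbp1 had a 3' UTR peak at E13.5 (rank 518). In the activating complex, Rbpj, Maml1, Ep300, Crebbp and Kat2a had a peak and Maml2, Maml3, Snw1 and Kat2b had none in an exon. Rbpj itself was listed at E11.5 and E13.5, with ranks 4044 and 5368. Kat2a was the third of the list at E11.5 (rank 978).

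Of the 9 genes for receptor cleavage, the ADAM proteases and the subunits of gamma-secretase, 7 had an exonic peak on some day. Of all protein-coding genes 30% had one, and the difference was not tested. Aph1b ranked 165 at E15.5 with a 3' UTR peak (chr9:66775385-66775470), and the nicastrin gene Ncstn ranked 972 at E13.5. Psenen, the smallest subunit, was listed on every day but E13.5. Among the other ligands, Jag1, Jag2 and Dll4 had no peak, and nor did Notch4. Dlk1, a noncanonical ligand and imprinted gene, led the list at E11.5 with a coding peak (rank 787), and Dner, a neuronal EGF-repeat protein, led it at E17.5 with a 3' UTR peak (rank 696). Pofut1 and Poglut1, which add the sugars that Fringe and other enzymes extend, were listed at E15.5.

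Among the other Hes genes, the Hey genes and Nrarp, Hes6 had peaks at E13.5, E15.5 and E17.5, Hey1 and Nrarp at E15.5, and Hes3, Hes7, Hey2 and Heyl none. Hes6, which counteracts Hes1, ranked 1124 at E17.5. Numb and Numbl, inhibitors of Notch, were listed at E11.5 and on the 3 later days, respectively. The Numbl peak of E15.5 was mostly intronic, with 100 of its 576 bases in exons. Dvl3, a Dishevelled gene better known from the Wnt pathway, was the 1 gene of the 67 (1.49%) with a peak on all 4 days. Of all protein-coding genes 1.77% had one on all 4, a similar share. The ranks of Dvl3 were 872, 1141, 1232 and 1126, and it came second at E11.5.

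**Figure D5:**
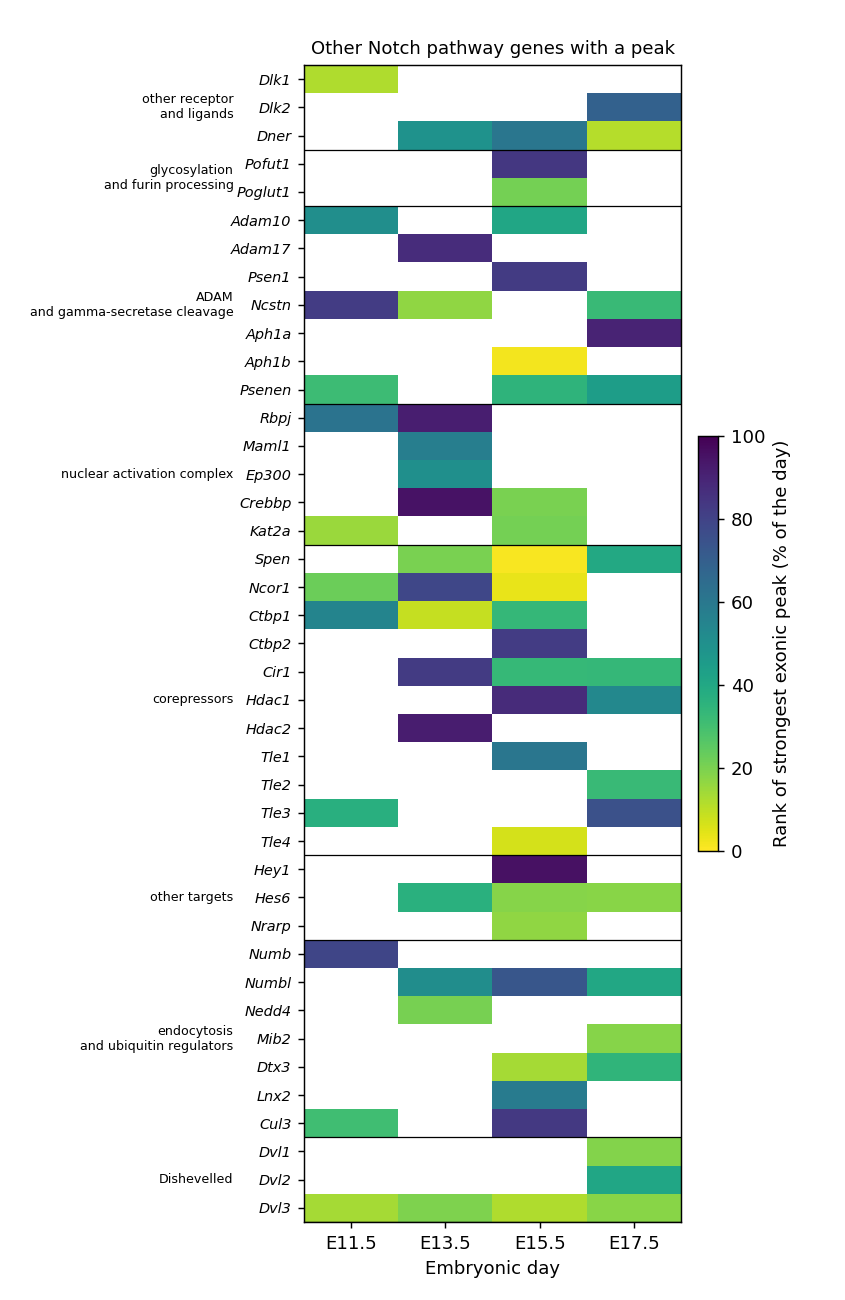
Other Notch pathway genes with an exonic peak (rows, grouped by role, 1 gene not drawn) by embryonic day (columns). Colour gives the rank of the strongest exonic peak as a percent of the peaks of the day, yellow being strongest, and white means no exonic peak. Dvl3 is filled on all 4 days, and the corepressors form the longest block.

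For members listed on 2 or more days, the genes with exonic peaks on the same days and the closest rank percentiles were looked up, over 2 or 3 days per gene. Rfng shared its days with 197 other genes, and Cenpf, Cep295 and Nucks1 were closest, at mean differences of 3.74, 5.24 and 5.29 percentage points. Notch1 shared its days with 343 genes and was closest to Eif3b, Arf4 and Cblb. Notch3 and Dll3 shared theirs with 502. The closest were Socs5, Senp5 and Ctsz for Notch3, and Zfp768, Arhgef12 and Baz2a for Dll3. Each likeness rests on 2 or 3 ranks.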

How the data were processed

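The values were 8 deposited peak lists, 1 per day and strand, in mm10 per the labels. The authors deposited a score, a signal, a p-value and a q-value per peak without column names, and all q-values lie at or below 0.01. Per the submitters' processing notes, Cufflinks 2.2.1, bedtools 2.17.0, TopHat2 2.0.9 and TopHat were used; their roles are not given, and the peak caller is not given in the sources used here. Lists named positive and negative were read as genome strands, since 94.1% to 97.4% of peaks over 1 gene lay on that strand. The lists hold no values per replicate, so no test over samples was possible and read depth is unknown. Gene models and sequences were GENCODE vM21 (GRCm38, the assembly of mm10). The transcript part was taken at the peak's middle base, over all isoforms. Positions used 1 representative isoform per gene (APPRIS principal, then longest coding sequence). RNAfold 2.7.2 folded 14968 peaks of at most 1000 bases within 1 exon. Assignment was tested on simulated peaks in known exons. The members and gene lists were chosen with earlier results of these data known. All members were named; of other pathway genes, the 3 strongest of each day and those listed on all 4 days, with further ones to describe each group, which were chosen after their values were seen. For 1 pathway gene, and for the sequence of 1 peak, results are not reported here.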

Additional observations from a re-analysis of the deposited data

How the results depend on the processing

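No paired analysis was possible because the lists carry no values per replicate. Of 63 alternatives, 41 left the count within 1.5 times of the reported one and 22 moved it, 21 of them downward. Part of this tally was fixed in advance. Settings that only drop peaks could not raise a count. A limit of 5000 bases could not move the member counts, since the widest member peak had 3128 bases. Equal list lengths left the E13.5 list, the shortest, as it was. With the stronger 50% of the peaks of each day, 1 member was left at E11.5, 1 at E13.5 and 1 at E17.5, the other pathway genes fell to 7, 8 and 16 at E11.5, E13.5 and E15.5, member peaks in 3' UTRs to 4, in coding sequence to 3 and in introns to 0, and members with overlapping peaks to 0 of the 1 member, Notch3, that still had peaks on 2 days (41.8% of all such genes). All genes fell too, to 5.18%, 6.92%, 12.6% and 8.38% on the 4 days. With equal list lengths, 1 member was left at E11.5 and 16 pathway genes at E15.5. The members at E15.5 were then 4, and all genes 13.9%. Only 10 of 29007 peaks had q below 0.001, which left 0 members and 0 pathway genes on every day by construction. With the class taken by any overlap, 9 member peaks were coding and 0 intronic. Without replicates and read totals, the lists cannot tell a peak absent on a day from one that missed the threshold.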
